A study of Homo sapiens with 18 samples.

Results

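The progestin response of human endometrial stromal cells at their native level of PGR, the progesterone receptor gene, was measured in 6 of the series' 18 RNA-seq libraries. THESC is an established telomerase-immortalised line of endometrial stromal cells, the fibroblasts of the uterus lining. The 6 libraries came from THESC cells that were CRISPR-engineered, carried a non-targeting guide (NT cells) and were labelled wild type. Of these, 3 libraries came from cells kept for 72 hours with the synthetic progestin medroxyprogesterone acetate (MPA) at 1 µM, and 3 from cells kept for 72 hours in vehicle, 0.01% ethanol. All cells were held in low-serum medium before treatment and in charcoal-stripped serum, which is depleted of steroids, during it. The other 12 libraries came from 2 lines in which guides had activated PGR, each under the same 2 treatments: promoter cells, labelled as dominated by the longer isoform PGRB, and U1U2 cells, labelled as having equal PGRA and PGRB. They entered here only to share the estimate of spread and to test whether responses differed from those of NT cells. Whether a line was 1 clone, and whether replicates were separate cultures, is not stated in the labels, so each p-value reflects the spread among these samples alone, and that spread may be technical.

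Progestins enter the cell and bind the progesterone receptor, a transcription factor held ready by chaperones, which then binds DNA at response elements and raises or lowers transcription nearby. MPA also binds the glucocorticoid receptor, whose response elements are nearly the same. In the endometrium, progesterone turns stromal fibroblasts towards decidual cells, restrains tissue breakdown and epithelial proliferation, and remodels the matrix for implantation. Since no library came from cells without PGR or with a blocked receptor, the receptor behind a response was not tested.

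Depth was 23.1, 30.9 and 15.4 M counts in the MPA libraries, against 11.9, 20.8 and 15.4 M in the vehicle libraries. Mitochondrial genes took 2.11% to 2.63% of the counts under MPA and 2.51% to 3.02% in vehicle. In a principal component analysis of the 6 libraries the first component (45.7% of the variance) placed the MPA libraries at -1.08, -17.5 and -24.4 and the vehicle libraries at -2.98, 20.7 and 25.4. Vehicle replicate 1 thus lay beside MPA replicate 1 on that axis, and it stood apart on the second component (32.7%), at 31.1 against -14.6 to 3.84 for the other 5 libraries. It was also the shallowest library. Genes that mark endometrial stroma were abundant, with a summed level of 17600 to 20100 CPM, the count scaled to library size, under MPA and 15900 to 19600 CPM in vehicle over 18 markers, of which TCF21 alone was at 0. The 12 smooth muscle and pericyte markers summed to 897 to 1060 CPM under MPA and 754 to 1100 CPM in vehicle, with none at 0. Markers of epithelial, endothelial and leukocyte cells were scarce. The 12 epithelial markers summed to 24.2 to 37.8 CPM under MPA and 29.3 to 45.1 CPM in vehicle, with CLDN3 at 0. The 10 endothelial markers, with ERG, CLDN5 and PLVAP at 0, summed to 44.0 to 45.8 CPM under MPA and 55.0 to 59.4 CPM in vehicle, and the 12 leukocyte markers, with CD3E, NKG7 and TYROBP at 0, to 2.66 to 2.95 CPM under MPA and 5.03 to 6.20 CPM in vehicle. Most of the endothelial sum was TEK, the angiopoietin receptor, and most of the leukocyte sum was PTPRC, the phosphatase CD45; both fell under MPA, by 0.35 ± 0.07 and by 1.36 ± 0.18 on the log2 scale. The part of other cells in the results was not tested. In bulk RNA, fewer cells of a type and less RNA per cell cannot be told apart.

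MPA changed the transcripts of 922 of 15558 tested genes (5.93%), 380 higher (2.44%) and 542 lower (3.48%), at a Benjamini-Hochberg adjusted p under 0.05 in edgeR's quasi-likelihood test. The counts for gene lists below are to be read against these shares. Fitted to the 6 NT libraries alone, the same test called 484 genes, 192 higher and 292 lower. A log2 fold change below is MPA minus vehicle, from 3 libraries against 3. The standard error beside it is its absolute value divided by the square root of the test's F statistic. That statistic uses a spread shared by all 18 libraries. The median log2 fold change was 0.70 among genes that rose, -0.69 among genes that fell and 0.02 over all tested genes. At 2-fold or more, 133 genes rose and 168 fell, and at 4-fold or more 35 rose and 34 fell. The groups' libraries did not overlap for 919 of the 922 called genes; over all tested genes this held for 19.3%. When each of the 6 libraries was left out in turn (the leave-one-out fits), 512 of the 922 genes (197 higher and 315 lower) were called in every fit. Among genes changed 2-fold or more, 218 of the 301 remained. Of the genes described here as changed with no other limit given, GATA2, FGF1, DUSP4, AXIN2, FZD2, TGFB2, ID2, EPSTI1, MYLK, TMEM97, ELOVL6, PLXNA2, TEK and OSR2 were not called in the fit of the 6 NT libraries alone. Some genes below are given without levels and were absent from the authors' log2 CPM table, where the lowest mean was 1.71 CPM. They include JUP, CILP, GRIA4, LIF, ESM1, ADRA1B, DUSP4, TM7SF2, NR4A2, NR4A3, AXIN2 and EPHA5. Protein-coding genes made up most calls, with 336 higher and 500 lower of 12297 (6.80%), against 34 higher and 24 lower of 1904 long non-coding genes (3.05%). The share called was 3.73% among the 4161 genes at a mean of at most 1 log2 CPM, where the median standard error was 0.38, and 7.77% among the 1996 genes above 7 log2 CPM, where it was 0.11.

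**Figure D1:**
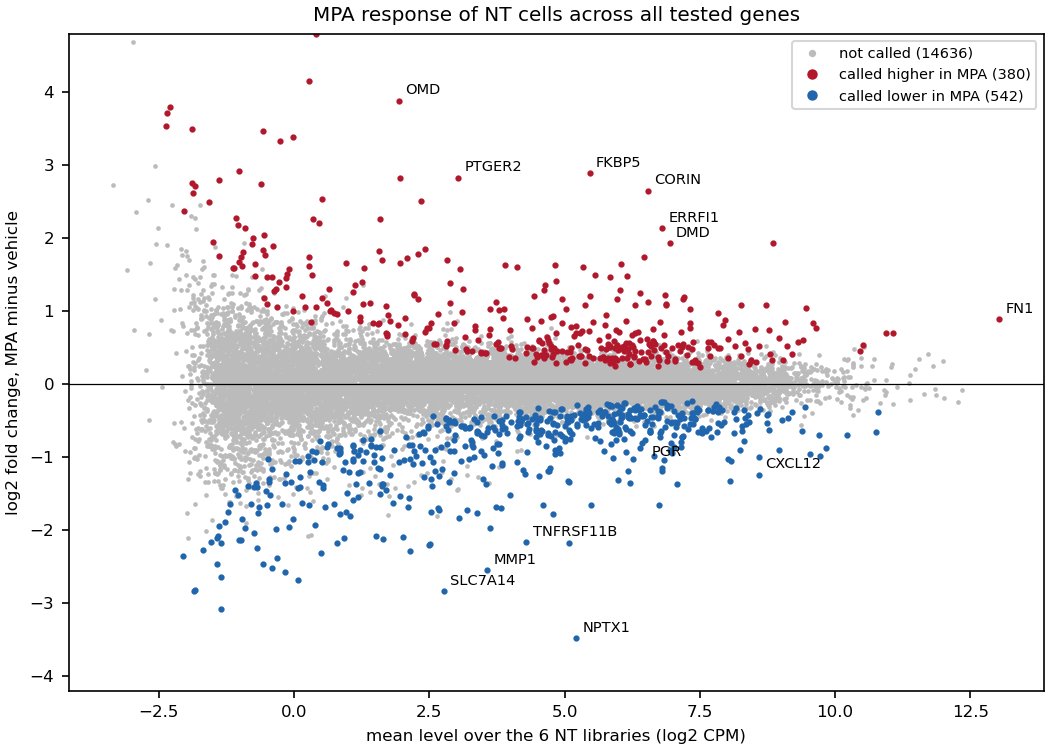
Each point is 1 of the 15558 tested genes, with its mean level over the 6 NT libraries (log2 CPM) on the horizontal axis and its log2 fold change, MPA minus vehicle, on the vertical axis. The 380 genes called higher (red) and the 542 called lower (blue) spread over the whole range of levels, with OMD and FKBP5 near the top and NPTX1 lowest among the labelled genes; ZBTB16 at 10.5 and LINC01755 at 5.48 lie above the axis.

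Among genes with a mean of at least 1 log2 CPM, OMD had the largest fold increase. It encodes osteomodulin, a small leucine-rich proteoglycan that binds collagen, and lies on chromosome 9 (chr9:92414245-92424461, GRCh38, minus strand). OMD stood at 17.5, 14.2 and 11.5 CPM under MPA, against 0.837, 1.00 and 1.05 CPM in vehicle (3.88 ± 0.19, adjusted p = 3.89e-10), or 1019 counts in all under MPA and 47 in vehicle. FKBP5, the immunophilin that loads onto steroid receptor complexes (chr6:35573585-35728583, minus strand), had 123.6, 115.8 and 120.2 CPM under MPA and 16.1, 16.9 and 15.5 CPM in vehicle (2.89 ± 0.10, adjusted p = 3.64e-12). In both genes every MPA library lay far above every vehicle library, and the replicates of FKBP5 were close together. PTGER2, a receptor for prostaglandin E2, had 23.8, 19.5 and 22.1 CPM under MPA and 2.68, 3.38 and 3.01 CPM in vehicle (2.83 ± 0.16). CORIN, the protease that activates natriuretic peptides, had 235.1, 232.6 and 230.1 CPM under MPA and 36.3, 39.0 and 35.6 CPM in vehicle (2.65 ± 0.18). PAPLN, a papilin of basement membranes, rose by 2.82 ± 0.23, and PER1, a repressor in the circadian clock, by 2.27 ± 0.32. The groups did not overlap for any of these. That was a condition for naming a gene by the size of its fold or CPM change, here and below.

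ERRFI1 encodes an inhibitor of the EGF receptor family. It had 240.5, 223.8 and 241.0 CPM under MPA and 49.9, 54.0 and 56.1 CPM in vehicle (2.14 ± 0.09, adjusted p = 4.95e-11). DMD, dystrophin, had 273, 247 and 206.5 CPM under MPA and 54.1, 71.1 and 64.3 CPM in vehicle (1.94 ± 0.14). The vehicle level of DMD was lowest in vehicle replicate 1. TSC22D3, the steroid-induced leucine zipper GILZ, had 129, 141 and 222.5 CPM under MPA and 52.97, 47.6 and 46.3 CPM in vehicle (1.74 ± 0.22), with MPA replicate 3 well above its fellows. Further large increases were in CHST7, a chondroitin sulfotransferase (1.79 ± 0.20), GCNT1, which branches O-glycans (1.65 ± 0.11), APOD, a lipid carrier (1.73 ± 0.23), IMPA2, an inositol monophosphatase (1.70 ± 0.15), RASL10B, a Ras-like protein (1.66 ± 0.24), TENT5B, a non-canonical poly(A) polymerase (1.70 ± 0.30), the non-coding gene LINC01237 (2.504 ± 0.19) and GRIA1, a glutamate receptor subunit (1.64 ± 0.14). ZBTB16, a zinc finger repressor and a known progestin and glucocorticoid target, went unseen in vehicle, with 0 counts in each of the 3 libraries. Under MPA it had 190, 245 and 93 counts, which puts it at least 122-fold higher than a floor of 3 counts summed over vehicle.

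Promoter letters were searched for response element motifs, since these genes include known steroid targets. The windows were those of RefSeq (GRCh38.p14), 250 bases before to 50 after a gene's start, on both strands, and a gene counted once if any of its windows held the motif. Of the 20 genes with the largest fold increase, 15 had a window. The element of the steroid receptor class, GNACANNNTGTNC, was found in 2 of the 15, CHST7 and DMD, against 0.336% of the 11003 tested genes with a window. Both windows are shown because they carry that element, in capitals; the DMD window belongs to an internal start of the gene.
CHST7, chrX:46573515-46573814, plus strand: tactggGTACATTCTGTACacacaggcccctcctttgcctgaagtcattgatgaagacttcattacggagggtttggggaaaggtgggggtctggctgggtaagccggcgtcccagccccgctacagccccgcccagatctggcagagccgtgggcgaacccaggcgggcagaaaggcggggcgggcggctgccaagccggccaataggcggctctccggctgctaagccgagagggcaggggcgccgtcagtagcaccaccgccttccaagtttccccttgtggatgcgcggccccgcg
DMD, chrX:32412179-32412478, minus strand: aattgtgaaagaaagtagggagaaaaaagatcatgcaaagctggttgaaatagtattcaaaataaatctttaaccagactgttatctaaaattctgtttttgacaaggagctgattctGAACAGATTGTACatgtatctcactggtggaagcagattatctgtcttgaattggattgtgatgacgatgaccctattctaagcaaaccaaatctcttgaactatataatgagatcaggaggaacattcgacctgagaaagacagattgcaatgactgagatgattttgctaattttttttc
The CHST7 element spans bases -244 to -232 from the start, and the DMD element -132 to -120. CHST7 had 8.18, 8.13 and 10.8 CPM under MPA, against 2.43, 2.81 and 2.49 CPM in vehicle. The core ACANNNTGT, which the longer element contains, stood in 4 of the 15 (also PAPLN and TSC22D3), against 4.17% of tested genes. It was in 1 of the 19 genes with a window on the list of steroid receptor-induced genes. Of the 20 genes with the largest fold decrease 14 had a window, and 0 of the 14 held either form. At the shares of all tested genes, 14 genes would hold few matches or none. A match is a run of letters and not a bound site, and genes with several starts have more windows to match.

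The palindrome bound by AP-1, the FOS and JUN factors, was searched as TGANTCA in the same windows, since several of the genes that fell are protease genes. It was found in 5 of the 14 genes with the largest decrease that had a window (CPA4, GALNT15, PRXL2A, RIPOR2 and SYT16) and in 3 of the 15 with the largest increase (ANKRD1, DMD and TENT5B), against 7.22% of tested genes. MMP10 was not among those 14 genes. Of the 6 metalloprotease genes called lower, 2 had a window, and 1 of the 2, MMP10, held the site. The windows of CPA4 and MMP10, both protease genes that fell, are shown because they hold the site, in capitals.
CPA4, chr7:130292911-130293210, plus strand: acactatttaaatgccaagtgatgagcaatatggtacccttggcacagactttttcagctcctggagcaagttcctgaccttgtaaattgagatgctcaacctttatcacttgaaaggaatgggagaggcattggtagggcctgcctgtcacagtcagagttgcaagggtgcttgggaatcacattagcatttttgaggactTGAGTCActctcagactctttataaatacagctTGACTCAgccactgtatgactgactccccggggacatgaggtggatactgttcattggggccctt
MMP10, chr11:102780579-102780878, minus strand: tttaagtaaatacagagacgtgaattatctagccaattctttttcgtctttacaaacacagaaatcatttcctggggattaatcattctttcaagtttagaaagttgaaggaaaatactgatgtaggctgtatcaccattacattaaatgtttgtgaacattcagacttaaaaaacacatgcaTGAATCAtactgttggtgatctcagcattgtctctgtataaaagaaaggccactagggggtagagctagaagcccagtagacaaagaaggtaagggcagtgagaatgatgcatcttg
The CPA4 window held 2 sites, the first at bases -48 to -42, and the MMP10 window 1 site at -67 to -61. CPA4, a carboxypeptidase, had 2.99, 4.11 and 3.30 CPM under MPA and 12.2, 11.0 and 10.8 CPM in vehicle (-1.69 ± 0.19, adjusted p = 8.12e-06). MMP10, a stromelysin, fell by 3.07 ± 0.55 on few reads, 6 counts in all under MPA against 37 in vehicle.

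Among the genes that fell, NPTX1 changed most. It encodes neuronal pentraxin 1, a secreted protein that clusters glutamate receptors (chr17:80467148-80477843, minus strand), and had 11.6, 11.4 and 10.3 CPM under MPA, against 143.8, 112.4 and 116.4 CPM in vehicle (-3.48 ± 0.11, adjusted p = 2.48e-12). SLC7A14, a lysosomal member of the cationic amino acid transporter family, had 2.04, 2.88 and 2.68 CPM under MPA and 16.2, 18.6 and 19.4 CPM in vehicle (-2.83 ± 0.17). MMP1, interstitial collagenase, had 4.72, 4.77 and 5.09 CPM under MPA and 29.5, 27.3 and 28.1 CPM in vehicle (-2.54 ± 0.11). Levels were close among replicates and the groups lay well apart for all 3. GRIN2A, an NMDA receptor subunit (-2.28 ± 0.19), CCN3, a matricellular growth regulator (-2.19 ± 0.16), SIPA1L2, a Rap GTPase activator (-2.17 ± 0.13), TNFRSF11B, the decoy receptor osteoprotegerin (-2.16 ± 0.13), SYT16, a synaptotagmin relative (-2.12 ± 0.25), and GALNT15, which starts O-glycans (-2.09 ± 0.18), each fell more than 4-fold. SEMA3D, a semaphorin (-1.77 ± 0.15), BMP2, a bone morphogenetic protein needed for decidual change in the mouse uterus (-1.77 ± 0.15), CYFIP2, an actin regulator (-1.72 ± 0.14), and ADGRL3, an adhesion receptor (-1.68 ± 0.12), fell by less than 4-fold. The pseudogene TMSB4XP4 also met the rule for named genes, but its 3 vehicle values were 59.4, 17.3 and 8.98 CPM and at an adjusted p of 0.04998 it was not called when any 1 of the 3 MPA libraries, or vehicle replicate 1 or 2, was left out.

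**Figure D2:**
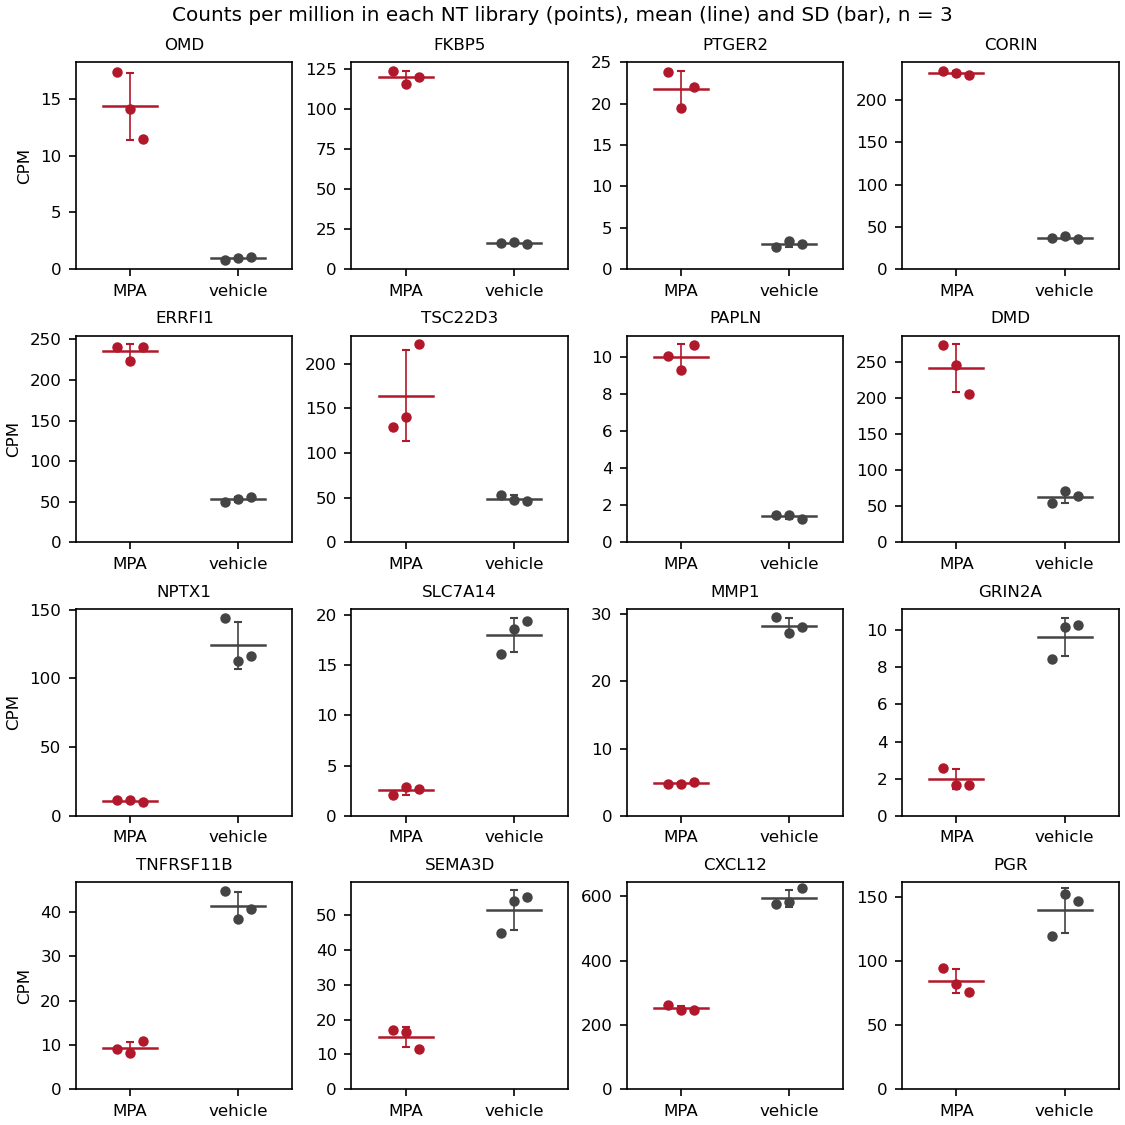
CPM of 16 genes in each of the 3 MPA (red, left) and 3 vehicle (grey, right) libraries of NT cells, with a line at the mean and a bar of 1 SD; each panel has its own axis from 0. The groups do not overlap in any panel, which was a condition for choosing all of these genes but PGR. OMD, FKBP5, PTGER2, CORIN, ERRFI1, TSC22D3, PAPLN and DMD are higher in MPA and the other 8 lower.

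Counted in CPM, which gives most weight to abundant and long transcripts, the largest increase was in FN1. FN1, fibronectin, had 9788, 10480 and 14710 CPM under MPA, against 7800, 5639 and 5365 CPM in vehicle (0.90 ± 0.19, adjusted p = 0.00544). The next were FBN1, the microfibril protein fibrillin 1 (0.71 ± 0.15), and THBS1, thrombospondin 1 (0.70 ± 0.14). MPA replicate 3 was highest in all 3 genes, and without it none was called (adjusted p = 0.0509 for FN1, 0.0664 for FBN1 and 0.0525 for THBS1). WNT5A, a non-canonical WNT ligand, was at 1869, 1684 and 1758 CPM under MPA and 1146, 1277 and 1237 CPM in vehicle (0.54 ± 0.12; adjusted p = 0.0668 without MPA replicate 1). MORF4L2, a chromatin-associated protein, rose by 0.77 ± 0.16 (adjusted p = 0.0585 without MPA replicate 3) and COL5A2, a type V collagen chain, by 0.46 ± 0.12, though COL5A2 was not called without MPA replicate 1 or 3 or vehicle replicate 2 or 3. ADAMTS1, a versican-cleaving protease (1.04 ± 0.10), NID1, nidogen (0.84 ± 0.08), and LTBP1, which tethers latent TGF-beta (1.09 ± 0.14), rose in every leave-one-out fit.

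The largest losses in CPM were of the gap junction gene GJA1, with 1377, 1330 and 1432 CPM under MPA and 2280, 2064 and 2181 CPM in vehicle (-0.66 ± 0.13). LUM, DCN, AKAP12, IGFBP3 and CXCL12 followed among those called in every leave-one-out fit. AKAP12, a kinase scaffold, fell by 0.88 ± 0.07. CXCL12, the chemokine of stromal cells, had 260.5, 248 and 248 CPM under MPA and 575, 584 and 624 CPM in vehicle (-1.24 ± 0.07). GPNMB, a transmembrane glycoprotein, fell by 0.65 ± 0.10. CTSK, the collagen-degrading cathepsin K, stood at 586, 572 and 819.8 CPM under MPA and 1266, 969 and 980.0 CPM in vehicle (-0.70 ± 0.16), and was not called without MPA replicate 1 or 2 or without vehicle replicate 1. SPOCK1, a testican proteoglycan, fell by 0.38 ± 0.09 and was not called without MPA replicate 2.

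PGR itself (chr11:101029624-101130524, minus strand) had 95.1, 82.3 and 76.2 CPM under MPA, against 120.0, 153 and 147 CPM in vehicle (-0.73 ± 0.12, adjusted p = 0.000881). All MPA libraries lay below all vehicle libraries. NR3C1, the glucocorticoid receptor gene, had 268, 237.5 and 263 CPM under MPA and 307, 328 and 330.1 CPM in vehicle (-0.33 ± 0.08, adjusted p = 0.0151), and was not called without MPA replicate 2, vehicle replicate 2 or vehicle replicate 3. ESR1, an estrogen receptor gene, was low, at 0.482 to 0.854 CPM under MPA and 0.502 to 1.18 CPM in vehicle. Of 11 steroid receptor genes tested, 0 rose in edgeR (1 at an unadjusted p under 0.05, and 0 in DESeq2) and the 2 named fell.

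Of 21 tested genes that steroid receptors are known to induce, 10 rose and 0 fell, with a median log2 fold change of 0.37 against 0.02 over all tested genes. At an unadjusted p under 0.05, 12 were higher and 0 lower, and DESeq2 also called 10 and 0. This list, like the others, was chosen with earlier results of these data known, so its counts are not an independent test. CRISPLD2, a secreted regulator of inflammation (1.10 ± 0.10), GADD45B, a stress sensor (0.89 ± 0.17), and TIPARP, an ADP-ribosyltransferase (0.82 ± 0.12), were called in every leave-one-out fit, as were FKBP5, TSC22D3, PER1, ZBTB16 and ERRFI1. KLF15, a zinc finger factor, was not called without MPA replicate 1 or 2 or vehicle replicate 2 or 3. SGK1, the serum and glucocorticoid kinase, had 377, 375 and 375 CPM under MPA and 314, 311 and 307 CPM in vehicle (0.27 ± 0.07, adjusted p = 0.0217). It did not overlap between groups, but of the leave-one-out fits only the one without vehicle replicate 1 called it.
Among 26 chaperone and coregulator genes 3 rose and 1 fell. Besides FKBP5 these were the coactivator NCOA3 (0.31 ± 0.07) and the AP-1 subunit FOSL2 (0.33 ± 0.08), of which FKBP5 alone was called without MPA replicate 3. The gene that fell was GATA2, a partner of the progesterone receptor in the uterus, at 16.6 ± 1.76 CPM under MPA and 24.0 ± 0.386 CPM in vehicle (SD, n = 3 each; -0.53 ± 0.12). HSD11B1, which regenerates active glucocorticoid, was the 1 gene of 15 steroid-metabolising enzymes to change, with 2.34, 2.72 and 3.65 CPM under MPA and 0.335, 0.334 and 0.131 CPM in vehicle (3.38 ± 0.30). The share called in that list, 6.67%, was near the 5.93% of all tested genes.

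Decidual markers went both ways, 5 higher and 8 lower of 26, with a median of 0.025 (-0.10 with CNR1 and ZBTB16, both at 0 counts in vehicle, set at their floor bound). The hallmark secreted products of decidual cells were near absent: PRL, prolactin, had 7 counts in all under MPA and 7 in vehicle, and IGFBP1 had 5 under MPA and 5 in vehicle, both below the filter on low counts. FOXO1, the factor that drives their transcription, was at 38.9, 34.1 and 29.9 CPM under MPA and 22.3, 28.2 and 24.5 CPM in vehicle (0.45 ± 0.12, adjusted p = 0.0286). The groups did not overlap, yet FOXO1 was not called without MPA replicate 1 or 2 or vehicle replicate 1 or 3. HAND2, a stromal factor that restrains FGF signalling, was at 29.4, 34.6 and 23.6 CPM under MPA and 26.1, 18.9 and 20.8 CPM in vehicle (adjusted p = 0.288), with overlapping groups. LTBP1, APOD, ZBTB16 and HSD11B1 were the markers that rose in every leave-one-out fit. IGFBP3 (-0.96 ± 0.09) and IGFBP5 (-1.68 ± 0.25), binding proteins of insulin-like growth factors, CLU, clusterin (-1.01 ± 0.15), and DPP4, a dipeptidyl peptidase (-0.94 ± 0.12), fell in every such fit, as did BMP2, LUM and DCN.

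**Figure D3:**
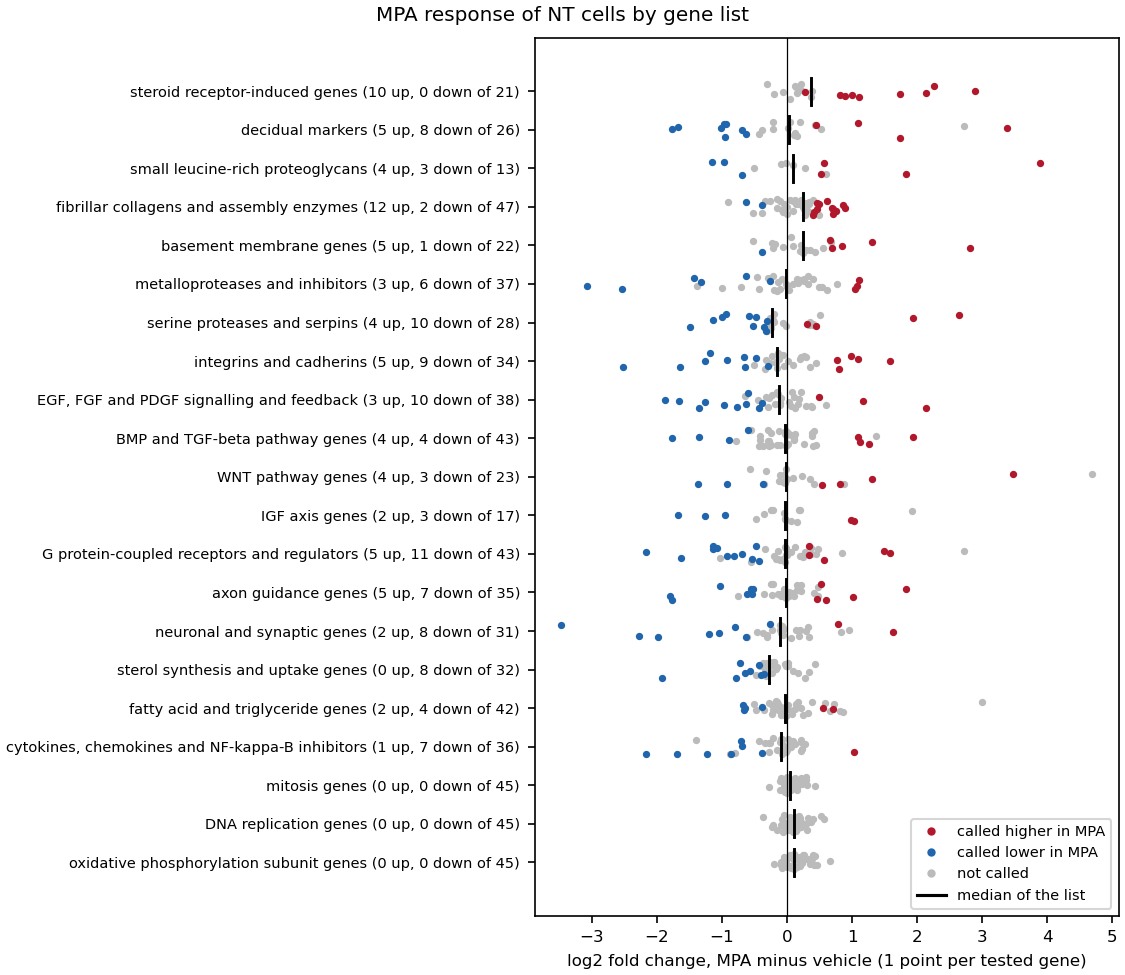
Log2 fold change, MPA minus vehicle, of each tested gene (points) in 21 gene lists, with the list's median as a black line; red and blue points are genes called higher and lower, and the counts stand beside each name. ZBTB16, at 10.5, is left out of the first 2 rows. The median is 0.37 for steroid receptor-induced genes and -0.27 for sterol synthesis genes, and no gene of the 3 lowest rows was called.

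Small leucine-rich proteoglycans bind collagen fibrils and set their spacing. Of 13 tested, 4 rose and 3 fell (median 0.09). The 4 that rose are neighbours on the minus strand of chromosome 9: OGN, osteoglycin (chr9:92383967-92404696), OMD, ASPN, asporin (chr9:92456205-92482506), and ECM2 (chr9:92493554-92536655). OGN had 6.37, 6.01 and 4.06 CPM under MPA and 1.42, 1.86 and 1.31 CPM in vehicle (1.83 ± 0.22, adjusted p = 1.91e-05). ASPN rose by 0.57 ± 0.16 (adjusted p = 0.042) and ECM2 by 0.52 ± 0.15 (adjusted p = 0.0465). OMD and OGN were called in every leave-one-out fit, while ASPN and ECM2 were called only in the fit without vehicle replicate 3, so the count was 2 in the other fits and also with DESeq2's size factors. All 4 lie inside CENPP, a centromere protein gene on the opposite strand (chr9:92325484-92620533), at 8.23, 6.26 and 7.43 CPM under MPA and 5.61, 5.72 and 6.68 CPM in vehicle (0.28 ± 0.16, adjusted p = 0.4), with overlapping groups. The counter's strand setting is not given, so reads of these overlapping genes cannot be told apart with certainty.
The 2 neighbours on chromosome 12, LUM, lumican (chr12:91102629-91111831), and DCN, decorin (chr12:91140484-91183123), both fell. LUM had 575, 520.5 and 721 CPM under MPA and 1213, 1137 and 1225 CPM in vehicle (-0.98 ± 0.14), and DCN had 864, 847 and 1111 CPM under MPA and 1713, 1420 and 1449 CPM in vehicle (-0.70 ± 0.12). PRELP, which anchors collagen to basement membranes, fell by 1.15 ± 0.15. MPA replicate 3 was the highest MPA library for LUM and DCN and still lay below every vehicle library.

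**Figure D4:**
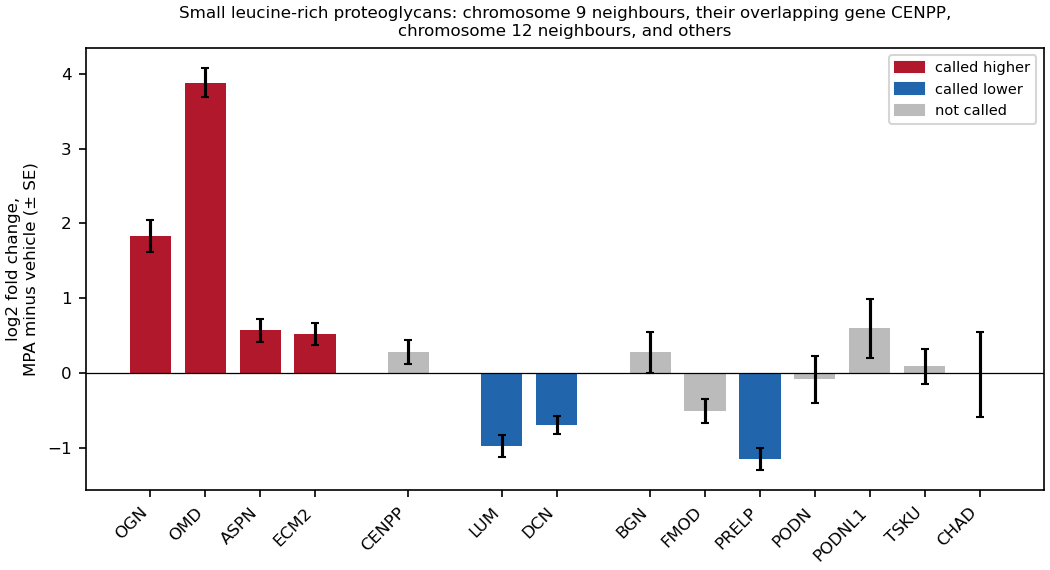
Log2 fold change, MPA minus vehicle, with its standard error (bars) for the tested small leucine-rich proteoglycan genes and CENPP; red bars were called higher, blue lower and grey not called. The chromosome 9 neighbours OGN, OMD, ASPN and ECM2 stand above 0, CENPP at 0.28 was not called, and the chromosome 12 neighbours LUM and DCN stand below 0.

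Of 47 fibrillar matrix genes 12 rose and 2 fell (median 0.25), and 4 rose without MPA replicate 3. FBN2, fibrillin 2, at 732 ± 64.8 CPM under MPA and 404 ± 47.5 CPM in vehicle (0.86 ± 0.12), FBLN1, fibulin 1 (0.71 ± 0.09), and VCAN, versican (0.61 ± 0.10), were called in every leave-one-out fit. The 2 that fell, LOXL4, a lysyl oxidase, and TNC, tenascin C, were lost without MPA replicate 1 or 3 or vehicle replicate 1, and 1 was called without MPA replicate 2 or vehicle replicate 2. In basement membranes 5 genes rose and 1 fell of 22 (median 0.24). NID1, PAPLN and the laminin chain LAMA2 (0.65 ± 0.09) were called in every leave-one-out fit, and these 3 were the count without vehicle replicate 2. LAMA1, the laminin chain that fell (-0.39 ± 0.09), was not called without MPA replicate 1.
Receptors and other partners of the matrix changed as well. Of 34 integrin, cadherin and junction genes 5 rose and 9 fell. The fibronectin receptor subunit ITGA5 (0.98 ± 0.18), the collagen receptor subunit ITGA1 (0.76 ± 0.10) and the beta subunit ITGB3 (1.09 ± 0.09) rose, as did ITGA10 (1.58 ± 0.32), while the laminin receptor subunit ITGA6 fell (-0.48 ± 0.08). ITGB3 stood at 60.6 ± 3.29 CPM under MPA and 28.5 ± 2.66 CPM in vehicle. The tight junction gene CLDN11 fell to 60.7 ± 8.75 CPM under MPA, against 191 ± 15.5 CPM in vehicle (-1.65 ± 0.13), and JUP, plakoglobin (-2.52 ± 0.43), CLDN1 (-1.27 ± 0.20) and the protocadherins PCDH10 (-1.18 ± 0.11) and PCDH9 (-0.65 ± 0.10) fell too. Among 25 matricellular genes 5 rose and 5 fell, and 3 fell without MPA replicate 1 or 3 or vehicle replicate 1 or 2. CCN4, a WNT-induced member of the CCN family, rose to 14.5 ± 1.75 CPM under MPA, against 4.88 ± 0.960 CPM in vehicle (1.57 ± 0.17), opposite in sign to CCN3. SRPX2 (0.73 ± 0.11) and CILP, a cartilage matrix protein (2.27 ± 0.42), rose and MXRA5 fell (-0.91 ± 0.11).

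Metalloproteases went both ways, 3 higher and 6 lower of 37 (median -0.02). Besides MMP1 and MMP10, the stromelysin MMP3 (-1.43 ± 0.32), the membrane-type MMP16 (-0.63 ± 0.11) and the aggrecanase ADAMTS5 fell in every leave-one-out fit. ADAMTS5 stood at 169 ± 29.5 CPM under MPA and 422 ± 22.5 CPM in vehicle (-1.32 ± 0.14). ADAMTS1 and the procollagen peptidase ADAMTS2 (1.08 ± 0.11) rose in every such fit.
Serine proteases, their receptors and serpins had 4 higher and 10 lower of 28 (median -0.24). The number that fell was 6, 4, 4 and 5 without MPA replicate 2, MPA replicate 3, vehicle replicate 2 and vehicle replicate 3, and 2 rose without each of these. CORIN was higher in every fit. DPP4, the Kunitz inhibitor TFPI2 (-0.996 ± 0.09) and the thrombin and trypsin receptors F2R (-0.48 ± 0.09) and F2RL1 (-1.14 ± 0.20) were lower in every fit. TFPI2 stood at 274.5 ± 18.8 CPM under MPA and 547 ± 46.6 CPM in vehicle. The metallocarboxypeptidases moved in opposite directions: CPM, the membrane-bound carboxypeptidase M, had scaled counts of 69.3, 68.3 and 73.4 under MPA and 22.6, 24.4 and 22.1 in vehicle (1.61 ± 0.08, adjusted p = 3.48e-10), and CPA4 fell, as given above. Both were called in every leave-one-out fit.

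Of 38 genes of EGF, FGF and PDGF signalling, 3 rose and 10 fell (median -0.13). Ligands fell: FGF9, a stromal mitogen of the endometrium, had 15.2, 14.7 and 11.0 CPM under MPA and 39.4, 44.9 and 45.1 CPM in vehicle (-1.66 ± 0.14), and NRG1, neuregulin 1, had 14.8, 13.6 and 16.7 CPM under MPA and 34.3, 35.8 and 36.9 CPM in vehicle (-1.26 ± 0.10). FGF5 (-0.77 ± 0.15) and FGF1 (-0.42 ± 0.09) were also lower in every leave-one-out fit. Among receptors, KIT, the stem cell factor receptor, had 41.6, 44.5 and 54.7 CPM under MPA and 102, 124.5 and 131 CPM in vehicle (-1.35 ± 0.11), and MET, the hepatocyte growth factor receptor, rose (0.50 ± 0.09). Feedback regulators were split, with ERRFI1 and the ERK phosphatase DUSP5 (1.17 ± 0.16) higher and the phosphatase DUSP4 (-1.89 ± 0.42) and PHLDA1 (-0.60 ± 0.12) lower.
BMP and TGF-beta genes had 4 higher and 4 lower of 43. The ligands BMP2 and TGFB2 (-0.90 ± 0.18) and the BMP target ID2 (-0.60 ± 0.13) fell. The activin subunit INHBB (1.26 ± 0.19) rose, as did LTBP1; the activin inhibitor FSTL3 (1.13 ± 0.26) was not called without MPA replicate 2 or vehicle replicate 2. BMP2 had 5.33, 5.79 and 5.71 CPM under MPA and 20.7, 18.9 and 17.9 CPM in vehicle.
WNT genes had 4 higher and 3 lower of 23. The ligand WNT2 fell to 51.4 ± 4.27 CPM under MPA, against 97.3 ± 2.41 CPM in vehicle (-0.92 ± 0.08), while WNT5A rose. ROR1, a receptor for WNT5A, had 131 counts in all under MPA and 8 in vehicle (3.47 ± 0.54). APCDD1, an inhibitor (1.30 ± 0.21), and AXIN2, a feedback target (0.82 ± 0.18), rose, and the inhibitor SFRP1 (-1.36 ± 0.21) and the receptor FZD2 (-0.37 ± 0.08) fell. In the insulin-like growth factor axis 2 rose and 3 fell of 17. IRS2, the adaptor of the insulin and IGF receptors, rose to 229 ± 15.2 CPM under MPA, against 112 ± 5.01 CPM in vehicle (1.03 ± 0.11), and IGFBP3, IGFBP5 and STC1, stanniocalcin 1 (-1.26 ± 0.19), fell. The other riser, the protease PAPPA2 (0.98 ± 0.24), was not called without MPA replicate 3 or vehicle replicate 2.

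Receptors on the cell surface changed in both directions. The pair of prostaglandin E2 receptors that raise cyclic AMP moved apart, PTGER2 upward and PTGER4 to 12.3, 12.9 and 10.9 CPM under MPA, against 23.0, 24.8 and 27.7 CPM in vehicle (-1.06 ± 0.10). Of 14 prostaglandin genes 2 rose and 2 fell, but PTGER2 and PTGER4 alone were called in every leave-one-out fit. PTGS1, a cyclooxygenase (0.52 ± 0.13), was not called without MPA replicate 3 or vehicle replicate 2 or 3, and PTGIS, prostacyclin synthase, lost its call whichever library was left out. Of 43 other G protein-coupled receptors and regulators 5 rose and 11 fell, and 2, 3 and 2 rose without MPA replicate 1, MPA replicate 2 and vehicle replicate 2. NPR3, the clearance receptor for natriuretic peptides (listed here with these receptors), rose to 80.9 ± 13.1 CPM under MPA, against 28.6 ± 7.36 CPM in vehicle (1.49 ± 0.15), as did ADRA1B, an alpha-1 adrenergic receptor (1.59 ± 0.27). RXFP1, the relaxin receptor, fell (-1.63 ± 0.19), as did F2RL2 (-1.14 ± 0.10), the alpha-2 adrenergic receptor ADRA2A (-1.07 ± 0.16), the bradykinin receptor BDKRB2 (-0.92 ± 0.13), GPRC5B (-0.82 ± 0.15), GPRC5A (-0.69 ± 0.12) and the serotonin receptor HTR2B (-0.54 ± 0.12). RXFP1 stood at 1.99 ± 0.329 CPM under MPA and 6.06 ± 0.616 CPM in vehicle.

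Of 31 genes best known from neurons 8 fell and 2 rose (median -0.11). Beyond NPTX1 and GRIN2A, CHRM2, a muscarinic receptor, fell to 187 ± 7.22 CPM under MPA, against 387 ± 29.04 CPM in vehicle (-1.05 ± 0.08). The glutamate receptor subunits moved apart: GRIA1 had 50.3, 53.3 and 46.2 CPM under MPA and 16.7, 17.3 and 14.2 CPM in vehicle, and GRIA4 fell (-1.98 ± 0.37). The adhesion genes NCAM2 (-0.80 ± 0.12) and CNTN3 (-0.63 ± 0.11) fell, and NRXN3, a neurexin, rose (0.78 ± 0.13).
Axon guidance genes, which also steer cell migration and vessels, had 5 higher and 7 lower of 35. Class 3 semaphorins were split: SEMA3C rose to 835 ± 54.7 CPM under MPA, against 551 ± 48.7 CPM in vehicle (0.60 ± 0.11), while SEMA3A fell to 183 ± 18.6 CPM under MPA, against 373 ± 22.3 CPM in vehicle (-1.02 ± 0.09), and SEMA3D fell with it. Their receptors NRP2 (0.52 ± 0.08) and PLXNA2 (1.01 ± 0.21) rose. NTN4, a netrin (-0.54 ± 0.09), the ephrin EFNA5 (-0.62 ± 0.10) and the ephrin receptors EPHA4 (-0.56 ± 0.09) and EPHA5 (-1.80 ± 0.29) fell.
Ion channels had 4 higher and 3 lower of 32. The potassium channel KCNK2 rose to 570.3 ± 25.2 CPM under MPA, against 341 ± 17.1 CPM in vehicle (0.74 ± 0.07), and KCNK6 (1.03 ± 0.11) and ANO4 (0.70 ± 0.09) rose, while KCND2 fell (-1.53 ± 0.20). Angiogenic factors had 4 higher and 6 lower of 26. ANGPTL1, an angiopoietin-like protein, had 351 counts in all under MPA and 14 in vehicle (4.15 ± 0.46), PTX3, a pentraxin, rose (1.09 ± 0.14), and ANGPTL2 (-0.65 ± 0.11) and ESM1 (-1.66 ± 0.37) fell.

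Of 60 transcription factors, many of them of the stroma, 10 fell and 3 rose (median -0.11); the number higher was 1 without MPA replicate 1 or 2 or vehicle replicate 3. PRRX1, a homeobox factor of mesenchyme, had 390, 359 and 343 CPM under MPA and 645, 685 and 709 CPM in vehicle (-0.90 ± 0.10). SOX4 fell to 85.0 ± 26.4 CPM under MPA, against 221 ± 4.31 CPM in vehicle (-1.37 ± 0.20), and TBX3 (-0.53 ± 0.10), OSR2 (-0.46 ± 0.10) and the orphan receptors NR4A2 (-1.49 ± 0.26) and NR4A3 (-1.21 ± 0.19) fell too. IKZF2, an Ikaros family factor, rose (0.91 ± 0.19). Of 19 circadian clock genes 2 rose and 3 fell. PER1 rose, whereas PER3, its relative, had 6.41, 6.80 and 8.46 CPM under MPA and 17.4, 19.9 and 15.7 CPM in vehicle (-1.30 ± 0.15), and NR1D2 (-0.86 ± 0.11) and BHLHE41 (-0.77 ± 0.14), both repressors in the clock, fell. NFIL3, another repressor (0.44 ± 0.09), was not called without MPA replicate 3.

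Of 32 sterol synthesis and uptake genes 8 fell and 0 rose, with a median of -0.27 against 0.02 over all tested genes. At an unadjusted p under 0.05, 12 were lower and 1 higher, DESeq2 called 8 and 0, and 1 rose without MPA replicate 3. The list was chosen with earlier results of these data known, so these counts are not an independent test. HMGCS1, which starts the mevalonate pathway, had 154, 145 and 190.4 CPM under MPA and 240.2, 278 and 292 CPM in vehicle (-0.73 ± 0.13). INSIG1, the sterol-responsive brake on SREBP, had 237, 226 and 266.5 CPM under MPA and 382, 422.5 and 446 CPM in vehicle (-0.78 ± 0.10). The synthesis enzymes MSMO1 (-0.64 ± 0.12), IDI1 (-0.57 ± 0.12) and TM7SF2 (-1.92 ± 0.36), and TMEM97, a regulator of cholesterol transport (-0.41 ± 0.07), fell in every leave-one-out fit. The enzymes SQLE (-0.36 ± 0.08) and SC5D (-0.43 ± 0.11) were not called without MPA replicate 2 or vehicle replicate 2 or 3, nor SC5D without MPA replicate 3.
Among 42 fatty acid and triglyceride genes 2 rose and 4 fell. The elongase ELOVL6 (-0.38 ± 0.07), the phosphatidate phosphatase LPIN1 (-0.65 ± 0.07) and the fatty acid carrier FABP4 (-0.68 ± 0.14) fell in every leave-one-out fit, and the 2 that rose, ACSL1 and PLIN2, were not called without MPA replicate 3 or vehicle replicate 2 or 3. The amino acid transporter SLC7A2 rose to 171 ± 16.8 CPM under MPA, against 80.4 ± 5.94 CPM in vehicle (1.08 ± 0.11), in contrast to SLC7A14; 3 of 23 amino acid transporters rose and 2 fell. SLC40A1, the iron exporter ferroportin, fell (-1.37 ± 0.17).

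Cytokines, chemokines and inhibitors of NF-kappa-B had 1 higher and 7 lower of 36 (median -0.10), and 4 fell without MPA replicate 2. TNFAIP3, the NF-kappa-B inhibitor A20, rose to 17.4 ± 1.87 CPM under MPA, against 8.58 ± 0.618 CPM in vehicle (1.03 ± 0.11). CXCL12, TNFRSF11B, TNFAIP6 (-0.70 ± 0.09) and LIF, the cytokine of implantation (-1.69 ± 0.30), fell in every leave-one-out fit. Of 42 interferon-stimulated genes 1 rose, a share near the 2.44% of all tested genes, and 4 fell (6 without vehicle replicate 1). IFIT2 fell to 61.9 ± 3.12 CPM under MPA, against 113.5 ± 9.82 CPM in vehicle (-0.87 ± 0.08), with IFIT1 (-0.59 ± 0.09), IFIT3 (-0.40 ± 0.08) and GBP2 (-0.55 ± 0.08), and EPSTI1 rose (0.46 ± 0.10). In the complement system C7, a component of the membrane attack complex, had 161 counts in all under MPA and 11 in vehicle (3.34 ± 0.49), and CD55, which shields cells from complement, fell (-0.43 ± 0.08).

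Proliferation genes did not pass the test. With 2.44% of all tested genes higher and 3.48% lower, few calls would fall in a list of 45. Of 45 mitosis genes 0 were called in either direction in edgeR, 1 was higher and 0 lower at an unadjusted p under 0.05, DESeq2 called 0, and the median was 0.05. Of 45 DNA replication genes 0 were called in edgeR and 0 in DESeq2, 3 were higher and 0 lower at an unadjusted p under 0.05, the median was 0.11, and 1 rose without vehicle replicate 3. Cell-cycle regulators outside these lists did change, 3 higher and 3 lower of 34. CCND1, cyclin D1, fell to 327 ± 15.2 CPM under MPA, against 431 ± 10.9 CPM in vehicle (-0.40 ± 0.07), RGCC rose (0.60 ± 0.09), and TP53INP1, a p53 target, fell (-0.54 ± 0.12). CDKN1B, the inhibitor p27, fell (-0.63 ± 0.14) but was not called without MPA replicate 3.
Of 45 oxidative phosphorylation subunits 0 were called in edgeR and 0 in DESeq2. Few calls would fall in such a list at the shares of all tested genes. At an unadjusted p under 0.05, 2 were higher and 1 lower, and the median was 0.11. Without vehicle replicate 1, 2 rose, as did 5 without a filter on low counts and 1 with GC and length offsets. Genes of the unfolded protein and amino acid stress responses had 2 higher of 41, where 2.44% of all tested genes were higher; 6 were higher without vehicle replicate 1, 1 without MPA replicate 3 or vehicle replicate 3, and 0 without MPA replicate 2 or vehicle replicate 2. For contractile genes the counts were 4 higher and 2 lower of 40, and 7 higher without vehicle replicate 1. ACTG2, a smooth muscle actin (1.48 ± 0.19), ANKRD1, a mechanosensitive repeat protein (1.85 ± 0.17), PDLIM5 (0.71 ± 0.09) and DMD rose in every leave-one-out fit, and MYLK, the myosin light chain kinase, fell (-0.37 ± 0.08). The 12 smooth muscle and pericyte markers summed to 897 to 1060 CPM under MPA and 754 to 1100 CPM in vehicle, and these ranges overlap; their part in the contractile counts was not tested.

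Responses of NT cells were compared with those of the PGR-activated lines. The difference of responses passed the test for 242 of 15558 genes in promoter minus NT cells (1.56%) and for 34 in U1U2 minus NT cells (0.219%). These counts depended on single libraries and on the filter: they were 124 and 9 without NT vehicle replicate 2, and 758 and 281 with no filter on low counts. Of the 40 genes with the largest folds in NT cells and PGR, 41 in all with 82 differences, 10 differences passed, 9 for promoter cells and 1 for U1U2 cells. All 10 were larger in the activated line, in the direction that NT cells took. IMPA2 rose by 3.72 ± 0.15 in promoter cells, 3.35 ± 0.15 in U1U2 cells and 1.70 ± 0.15 in NT cells, and FKBP5 by 4.07 ± 0.10 in promoter cells, 3.46 ± 0.10 in U1U2 cells and 2.89 ± 0.10 in NT cells. CPA4 stood at -3.28 ± 0.20 in promoter cells, -2.73 ± 0.19 in U1U2 cells and -1.69 ± 0.19 in NT cells. For NPTX1, with the largest fall in NT cells, the fold change was -3.25 ± 0.12 in promoter cells, -3.02 ± 0.11 in U1U2 cells and -3.48 ± 0.11 in NT cells, and for CORIN it was 3.06 ± 0.18 in promoter cells, 2.86 ± 0.18 in U1U2 cells and 2.65 ± 0.18 in NT cells; neither difference passed in either line. A difference that misses the threshold does not show that the lines respond alike.

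**Figure D5:**
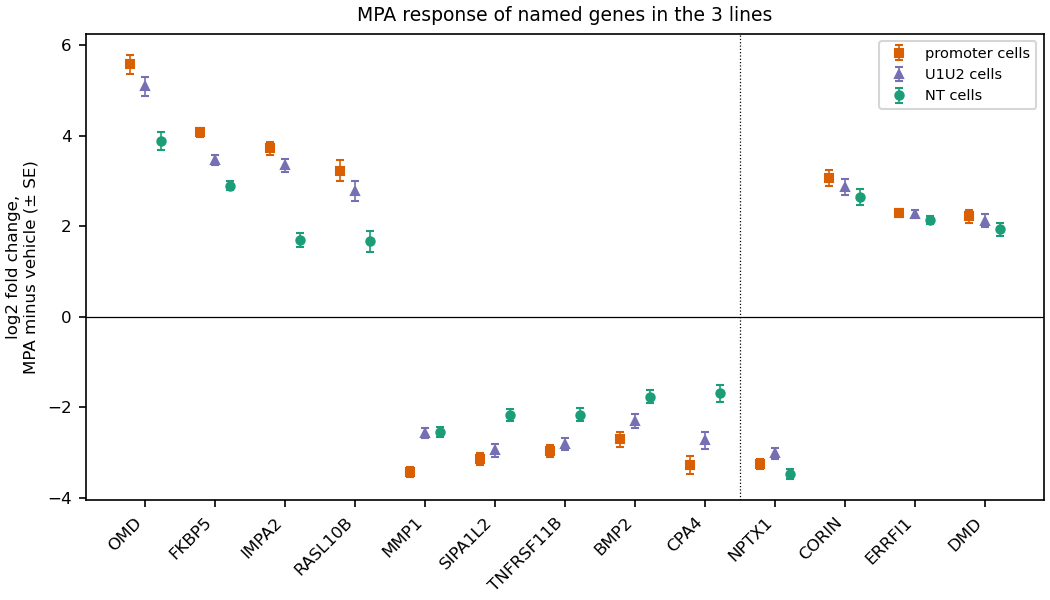
Log2 fold change, MPA minus vehicle, with its standard error, in promoter (orange squares), U1U2 (purple triangles) and NT cells (green circles), each from 3 libraries against 3. Left of the dotted line are the 9 genes whose response differed from NT cells in at least 1 line, among them IMPA2 at 3.72, 3.35 and 1.70; right of it, NPTX1, CORIN, ERRFI1 and DMD are shown as genes with large changes in NT cells whose differences did not pass.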

How the data were processed

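Messenger RNA of 18 THESC libraries was measured by poly(A) RNA-seq with a stranded kit, per the labels' protocols. The authors deposited whole-number counts per gene for 78724 genes and a table of log2 CPM for 10402 genes. Per the submitters' processing notes the tools were STAR 2.6.0c, edgeR 4.2.2 and R 4.4.1 with hg38. Their roles, the counter with its strand setting, and the gene models are not given in the sources used here. Values of the authors' log2 CPM table lay within 5e-09 of those recomputed from the counts (TMM factors, prior count 2), and entered no test except to define 1 alternative gene set.

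From the counts, filterByExpr (minimum count 10) kept 15558 genes. edgeR 4.0.16 in R 4.3.3 fitted all 18 libraries by quasi-likelihood, each group as 1 term; they share 1 batch label and 1 estimate of spread, whose common coefficient of variation was 0.129. The contrasts were MPA minus vehicle in NT cells, and that response subtracted from the response of each other line. P-values were adjusted over all tested genes by Benjamini-Hochberg at 0.05. CPM values use TMM-scaled totals, except the sums over marker genes, which use unscaled totals. Errors beside CPM values are SDs of 3 libraries. GENCODE 29 positions (GRCh38) matched 14700 of the tested genes (94.5%). Totals of the 6 NT libraries ran from 11.9 to 30.9 M counts, and floors of 3 counts cover counting error only. Counts were simulated at the same depths (15278 genes), drawn independently at each gene's fitted spread. Differences between whole libraries were not simulated, so recovery and false calls in the real libraries may differ. In these counts the NT contrast recovered 31 of 67 genes set at 1.5-fold (46.3%). It recovered 57 of 67 set at 2-fold (85.1%) and 66 of 66 set at 4-fold (100%), with 7 false calls. Recovery among genes with low counts was not tested.

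Named genes were, among those called, the 20 largest folds in each direction at a mean of at least 1 log2 CPM with no overlap between groups and no clone-based symbol, the 10 largest changes in CPM each way, members of 45 gene lists, PGR, and genes with at most 3 counts in 1 group and at least 60 in the other. The text names some of them, and a few are not reported here. ESR1, HAND2, PRL, IGFBP1, CNR1 and CENPP, which were not called, and LINC01755 were chosen after their values were seen. The lists, members and tests were chosen with earlier results of these data known, from general knowledge, and some genes stand in more than 1 list. The alternatives were DESeq2's size factors, DESeq2 1.42.0, limma-voom (limma 3.58.1), no filter, the genes of the deposited log2 CPM table, the 6 NT libraries alone, a replicate block, GC and length offsets, and leaving out each NT library.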

Additional observations from a re-analysis of the deposited data

Results flagged for a closer look

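Responses that differed between lines were looked for among the 40 genes with the largest folds in NT cells and PGR, with 82 differences tested and p-values adjusted over all tested genes for each contrast; 10 passed. In each, every line moved the same way and the response was larger in the activated line than in NT cells. In promoter minus NT cells, the difference in log2 fold change was 1.69 ± 0.31 for OMD (adjusted p = 0.00764), 1.18 ± 0.13 for FKBP5 (adjusted p = 0.00013), 2.02 ± 0.21 for IMPA2 (adjusted p = 4.47e-05) and 1.56 ± 0.33 for RASL10B (adjusted p = 0.0187). Among genes that fell, it was -0.89 ± 0.15 for MMP1 (adjusted p = 0.00498), -0.98 ± 0.18 for SIPA1L2 (adjusted p = 0.00814), -0.80 ± 0.19 for TNFRSF11B (adjusted p = 0.0349), -0.94 ± 0.22 for BMP2 (adjusted p = 0.0363) and -1.59 ± 0.27 for CPA4 (adjusted p = 0.00426). In U1U2 minus NT cells it was 1.64 ± 0.21 for IMPA2 (adjusted p = 0.00126). The 2 treatments of NT cells enter both differences, so these share their NT libraries.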

How the results depend on the processing

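The 922 calls of MPA against vehicle became 903 with DESeq2's size factors, 1041 with DESeq2, 1026 without a filter, 832 on the genes of the deposited log2 CPM table, 879 with limma-voom and 1295 with GC and length offsets; no called gene changed direction in any alternative. The share of calls that were higher was 48.2% with these offsets (624 higher, 671 lower), against 41.2%. With the 6 NT libraries alone, 484 genes were called. Leaving out 1 NT library gave 628 (without vehicle replicate 2) to 986 (without vehicle replicate 1). For U1U2 minus NT (34) the counts were 123 with DESeq2, 281 without a filter, 55 on the deposited table's genes and 81 with the offsets, and 9 to 35 with 1 NT library left out (35 without vehicle replicate 1, at most 21 without any other). For promoter minus NT (242) they were 458 with DESeq2, 758 without a filter and 404 with the offsets, and 124 to 267 with 1 left out (133 without MPA replicate 3, 124 without vehicle replicate 2 and 134 without vehicle replicate 3). By list, the offsets raised the number higher to 18 of the fibrillar matrix genes, 9 of the contractile genes and 7 of the stress response genes, and without a filter 1 chaperone or coregulator rose and 2 fell, 9 stress response genes and 5 oxidative phosphorylation genes rose, and 5 serine protease genes fell. The cause of these shifts was not tested. A replicate block gave 490, 5 and 37 calls for the 3 comparisons. Deviations of same-numbered NT libraries from their group means correlated at -0.583, -0.416 and -0.021. Differently numbered libraries reached 0.549. With 3 libraries per group, such correlations cannot show whether the replicate numbers pair the samples. Of 3723 values of 268 followed genes, 3197 stayed on their side of the threshold and 526 did not, with 0 reversals. In simulated counts at these depths, 31 of 67 genes set at 1.5-fold (46.3%) were recovered in the NT contrast. Those counts were drawn independently at each gene's fitted spread. Differences between whole libraries were not simulated, so recovery in the real libraries may differ. Depth itself was not varied, and recovery among genes with low counts was not tested.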
